A study of Mus musculus with 22 samples.

Results

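The question addressed here was which liver transcripts DTMB moved in the same direction in a high-fat-diet model and in a methionine- and choline-deficient-diet model. DTMB is a compound known from the labels only by this code name, dosed orally with 10 mg/kg per day. All libraries on a disease diet were taken, 15 of the 22 libraries of the series, and fitted together with a mean for each of the 4 groups. The DTMB effect was the mean of the 2 cohorts' differences, DTMB minus vehicle, so that each cohort was compared within itself and both had equal weight. All mice were wild-type male C57BL/6J and the tissue was liver. The high-fat-diet (HFD) cohort, labelled MASLD (metabolic dysfunction-associated steatotic liver disease), had 4 libraries with vehicle and 4 with DTMB. The methionine- and choline-deficient (MCD) cohort, labelled MASH (metabolic dysfunction-associated steatohepatitis), had 4 with vehicle and 3 with DTMB. Replicates are numbered in the labels as biological replicates. The labels also name each cohort as a batch, so diet model and batch cannot be told apart, while age and length of feeding are not stated in the labels. The 7 normal-diet (ND) libraries, 3 and 4 in the respective cohorts, did not enter the fit and are given as levels only, for part of the genes. Whether DTMB moved a gene toward or away from the ND level was not tested.

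In fatty liver disease, lipid-loaded hepatocytes are accompanied by activation of macrophages and of hepatic stellate cells, the vitamin A-storing pericytes of the sinusoid. Activated stellate cells respond to platelet-derived growth factor and transforming growth factor beta, and lay down collagens, laminins and other matrix proteins that proteases then remodel. A diet lacking methionine and choline blocks phosphatidylcholine synthesis and the export of lipoprotein lipid, whereas a high-fat diet loads the liver with dietary fat, so the models reach steatosis by different routes.

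The 15 libraries held 50.1 to 66.7 M counts. Levels are given as CPM, counts scaled to a common library size after TMM correction, with library values in the order of their replicate numbers. The summed level of 8 hepatocyte markers was 83900 to 125000 CPM. Pancreatic acinar transcripts, which liver should lack, summed to 534 CPM in HFD vehicle replicate 1, 3530 CPM in HFD vehicle replicate 4 and 2300 CPM in HFD DTMB replicate 3, against 6.16 to 24.8 CPM in the other 12 libraries.

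In the joint fit 38 of 16351 genes passed at an adjusted p under 0.05 (0.232%), and such genes are named called genes here. With DTMB 15 of them rose (0.0917%) and 23 fell (0.141%), and all 38 had the same sign in both cohorts, against 63.6% of all genes tested. A mean over cohorts is larger where signs match, so this share is not independent of the call. The genes that fell included the receptors Pdgfrb and Tgfbr2, the matrix proteins Col4a2, Lamc1 and Aebp1, the proteases Adamts5 and Plau, and Asap1 and Fam129b, proteins of cell adhesions and junctions. Called genes are ordered by what they encode, an order made after the calls that tests nothing. The genes that rose included the secreted proteins Igfbp2, Serpina3m and Rnase4. In 19 of the 38 genes the vehicle and DTMB libraries did not overlap in either cohort (6 that rose and 13 that fell). Over all genes tested that was so, in 1 direction, for 104 genes (0.636%), 39 higher (0.239%) and 65 lower (0.398%), and as the same libraries chose the called genes their count is a description. An unadjusted p under 0.05 in each cohort separately was reached by 10 of the 15 genes that rose and 19 of the 23 that fell, and 332 of all genes tested did so with 1 sign (2.03%).

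The called genes lay close together at the threshold, with adjusted p from 0.0359 to 0.0497 and the next gene at 0.0501. Leaving out 1 library at a time kept the direction of every called gene that could be fitted, but moved the number called between 0 and 869. The kept direction is not independent of the call, as the fits share libraries. Without HFD vehicle replicate 1, 2 or 4, HFD DTMB replicate 2, 3 or 4, MCD vehicle replicate 3 or MCD DTMB replicate 3 the count was 0, while 2481 to 3248 genes had an unadjusted p under 0.05. It was 1 without MCD DTMB replicate 2, 8 without MCD vehicle replicate 2, 127 without MCD DTMB replicate 1, 139 without HFD DTMB replicate 1, 431 without MCD vehicle replicate 1, 434 without HFD vehicle replicate 3 and 869 without MCD vehicle replicate 4. Other tools counted from 0 to 1956 genes. With all 15 libraries 3645 genes had an unadjusted p under 0.05, 1681 higher (10.3%) and 1964 lower (12.0%), and 786 had an adjusted p under 0.1.

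**Figure D1:**
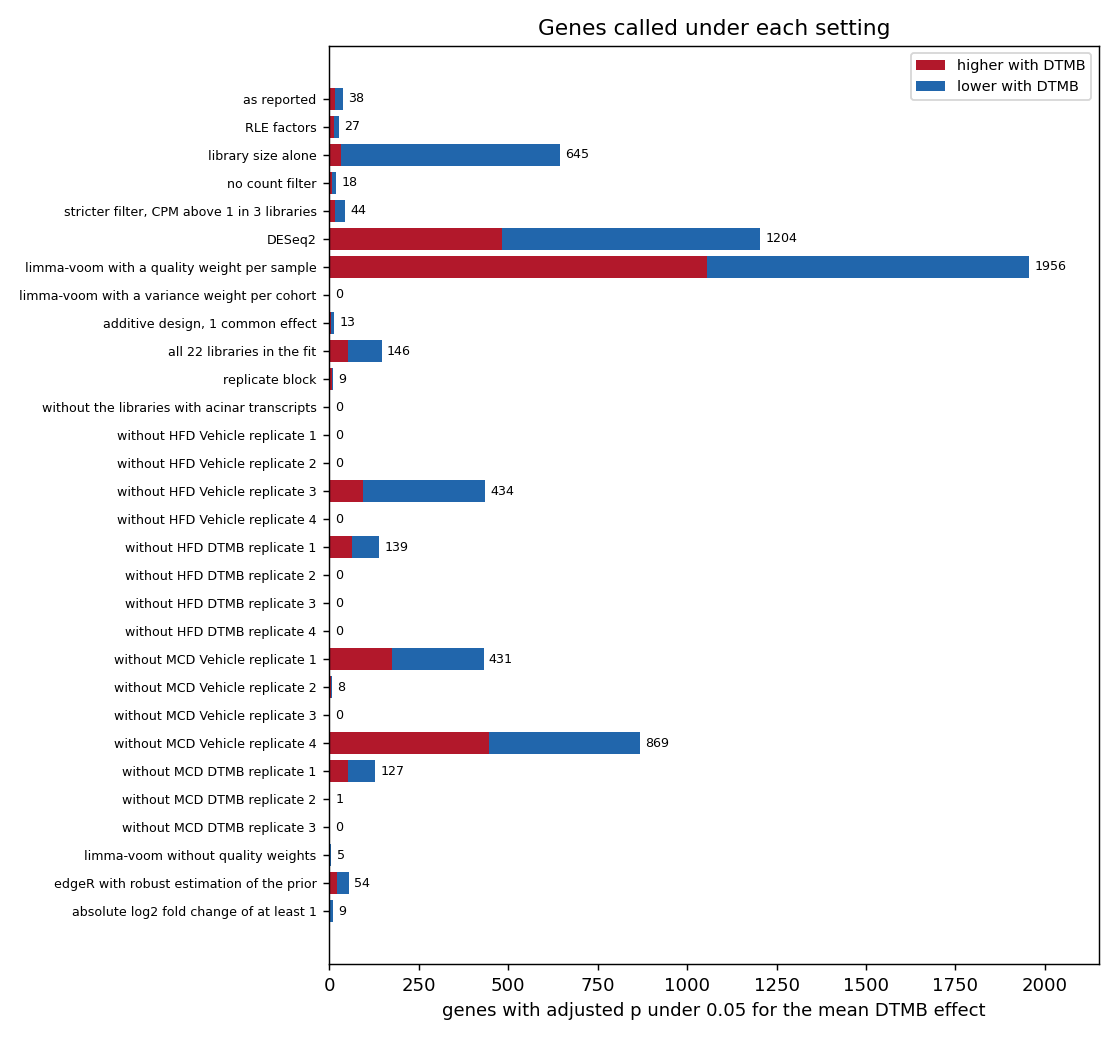
Number of genes with an adjusted p under 0.05 for the mean DTMB effect (x axis), split into genes higher (red) and lower (blue) with DTMB, for the fit as reported and each alternative or left-out library (y axis, total printed at the bar). The fit as reported calls 38 genes, and single libraries move the count between 0 and 869.

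Without the 3 libraries that held acinar transcripts, all 38 genes kept their direction and had an unadjusted p under 0.05. Their median absolute log2 fold change was 0.727 with all libraries and 0.662 without these 3. For the 36 called genes with counts in every group the fold change without them was 0.738 to 1.17 times that with all libraries, on the log2 scale. No gene passed the adjusted threshold in that fit, in which edgeR's lowest adjusted p was 0.268 and 1666 genes had an unadjusted p under 0.05.

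**Figure D2:**
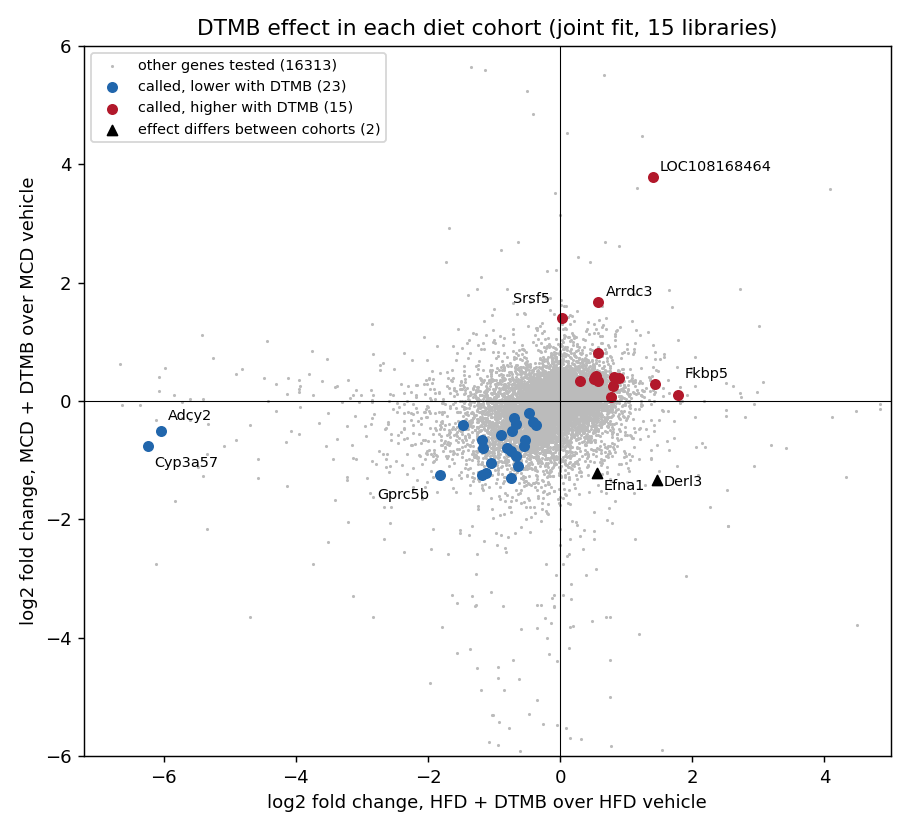
Log2 fold change, DTMB over vehicle, in the HFD cohort (x axis) and in the MCD cohort (y axis) for each gene tested (1 point a gene, 24 genes beyond the axes not drawn). The 23 genes called lower (blue) lie in the lower left and the 15 called higher (red) in the upper right, with Srsf5 near 0 in the HFD cohort, and the 2 genes whose effect differed between cohorts are black triangles.

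The receptor genes that fell were Pdgfrb, Tgfbr2, F2r and Gprc5b. Pdgfrb (chr18:61045127-61085067, gene ID 18596, GRCm38.p6), the receptor for platelet-derived growth factor B on stellate cells and other pericytes, stood at 9.58, 7.53, 5.85 and 11.7 CPM in the HFD vehicle libraries and 5.8, 5.15, 4.71 and 4.16 CPM in those with DTMB. Its MCD values were 11.6, 17.6, 11.3 and 11.8 CPM with vehicle and 9.22, 7.05 and 6.35 CPM with DTMB. The groups did not overlap in either cohort, and MCD vehicle replicate 2 stood above the rest of its group. The mean log2 fold change was -0.80 ± 0.15 (standard error, SE), adjusted p 0.0473, made of -0.81 ± 0.21 in the HFD cohort and -0.79 ± 0.23 in the MCD cohort. ND libraries held 5.61 to 7.88 CPM in the HFD cohort and 4.92 to 12.7 CPM in the MCD cohort. Without the 3 libraries that held acinar transcripts the mean was -0.60 ± 0.16.

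Tgfbr2 (chr9:116087695-116175363, gene ID 21813), the ligand-binding type II receptor for transforming growth factor beta, gave 26.7, 26.9, 24.6 and 30.4 CPM with HFD vehicle and 18.4, 14.7, 18.3 and 15.7 CPM with HFD DTMB. It gave 37.5, 35.7, 30.5 and 27.8 CPM with MCD vehicle and 25.7, 29 and 26.6 CPM with MCD DTMB. The HFD groups stood apart, while in the MCD cohort the DTMB libraries reached into the range of the vehicle libraries. The mean was -0.49 ± 0.081 (adjusted p 0.0359), with -0.70 ± 0.11 in the HFD cohort and -0.28 ± 0.12 in the MCD cohort. ND libraries of the HFD cohort held 27.6 to 32.1 CPM, above all HFD DTMB libraries, and those of the MCD cohort 19.4 to 35.6 CPM. Of the 24 genes listed for transforming growth factor beta and YAP/TAZ signalling, Tgfbr2 alone passed. In that list 18 had the same sign in both cohorts and the median log2 fold change was -0.19 over both, -0.19 in the HFD and -0.31 in the MCD cohort. The ligand genes Tgfb3 and Tgfb1 were at -0.96 ± 0.22 (adjusted p 0.0651) and -0.55 ± 0.14 (adjusted p 0.0713).

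F2r (chr13:95601780-95618466, gene ID 14062), the thrombin receptor PAR1, held 31.4, 30.1, 29.9 and 29.4 CPM with HFD vehicle and 20.8, 18.8, 26.2 and 17.5 CPM with HFD DTMB. The MCD libraries held 28, 34.5, 27.6 and 26.4 CPM with vehicle and 20.9, 20 and 14.7 CPM with DTMB. No DTMB library reached a vehicle library in either cohort. Its mean was -0.59 ± 0.10 (adjusted p 0.0359), and ND libraries held 20.7 to 27.5 and 15.7 to 37 CPM in the HFD and MCD cohorts. Gprc5b (chr7:118972040-118995211, gene ID 64297), an orphan receptor of the retinoic acid-inducible family, had the largest fall among the called genes of at least 1 CPM whose groups did not overlap in either cohort. It stood at 2.36, 1.76, 1.55 and 3.58 CPM with HFD vehicle and 0.727, 0.723, 0.698 and 0.466 CPM with HFD DTMB, and at 0.853, 2.03, 2.15 and 1.19 CPM with MCD vehicle and 0.498, 0.718 and 0.748 CPM with MCD DTMB. The DTMB libraries were all below 0.8 CPM and below every vehicle library of their cohort. The mean was -1.53 ± 0.25 (adjusted p 0.0359), with -1.82 ± 0.33 and -1.25 ± 0.36 in the HFD and MCD cohorts, and ND libraries held 0.655 to 1.53 and 0.27 to 1.04 CPM.

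Col4a2, Lamc1, Aebp1 and Crispld2 encode matrix or secreted proteins. Of the lists, 1 of 16 collagens (Col4a2) and none of 30 matrix glycoproteins, proteases and crosslinkers was called, and Lamc1, Aebp1 and Crispld2 stood in no list. Col4a2 (chr8:11312805-11449287, gene ID 12827) encodes the alpha 2 chain of type IV collagen in basement membranes, and held 22.3, 18, 13.9 and 26.8 CPM with HFD vehicle and 12.7, 10.1, 10.3 and 10.4 CPM with HFD DTMB, and 37.7, 53.2, 41.4 and 39 CPM with MCD vehicle and 32.7, 30.7 and 23 CPM with MCD DTMB. The groups did not overlap, although the lowest HFD vehicle library (replicate 3) lay within 1.5 CPM of the highest HFD DTMB library (replicate 1). The mean was -0.73 ± 0.13 (adjusted p 0.0415), -0.90 ± 0.18 in the HFD and -0.57 ± 0.19 in the MCD cohort. It was -0.54 ± 0.13 without the 3 libraries that held acinar transcripts. Col4a2 stood at 13.6 to 14.9 and 16.4 to 29.4 CPM in ND libraries of the HFD and MCD cohorts. Its neighbour Col4a1, which starts head to head with it and overlaps it by position, was at -0.68 (adjusted p 0.0825). Lamc1 (chr1:153218922-153332786, gene ID 226519), the laminin gamma 1 chain of basement membranes, held 14.7, 14.9, 13.1 and 18.1 CPM with HFD vehicle and 11.5, 9.31, 9.36 and 8.13 CPM with HFD DTMB. It held 19.6, 28.9, 21 and 25.8 CPM with MCD vehicle and 19.3, 18.2 and 16.9 CPM with MCD DTMB, again without overlap. The mean was -0.53 ± 0.10 (adjusted p 0.0473). In ND libraries Lamc1 held 16.5 to 20.7 CPM in the HFD cohort, above all HFD DTMB libraries, and 10.6 to 18.8 CPM in the MCD cohort.

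Aebp1 (chr11:5861866-5872248, gene ID 11568) encodes a secreted collagen-binding protein, also called ACLP. It stood at 2.28, 5.03, 2.04 and 2.64 CPM with HFD vehicle and 1.57, 1.25, 1.16 and 1.3 CPM with HFD DTMB, and at 1.91, 3.83, 3.3 and 2.17 CPM with MCD vehicle and 1.11, 1.39 and 1.03 CPM with MCD DTMB. All 7 DTMB libraries lay below all 8 vehicle libraries, over both cohorts. The mean was -1.22 ± 0.22 (adjusted p 0.0403), with nearly the same size in the cohorts (-1.18 ± 0.29 and -1.25 ± 0.32). ND libraries of the HFD cohort held 1.9 to 3.41 CPM, above all HFD DTMB libraries, and those of the MCD cohort 0.404 to 2.74 CPM. Crispld2 (chr8:119992438-120052794, gene ID 78892), a secreted glycoprotein, held 0.844, 1.5, 1.01 and 0.966 CPM with HFD vehicle and 0.708, 0.679, 0.68 and 0.503 CPM with HFD DTMB, then 1.75, 2.67, 1.54 and 1.4 CPM with MCD vehicle and 0.94, 0.557 and 0.748 CPM with MCD DTMB, and its mean was -1.02 ± 0.20 (adjusted p 0.0473).

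**Figure D3:**
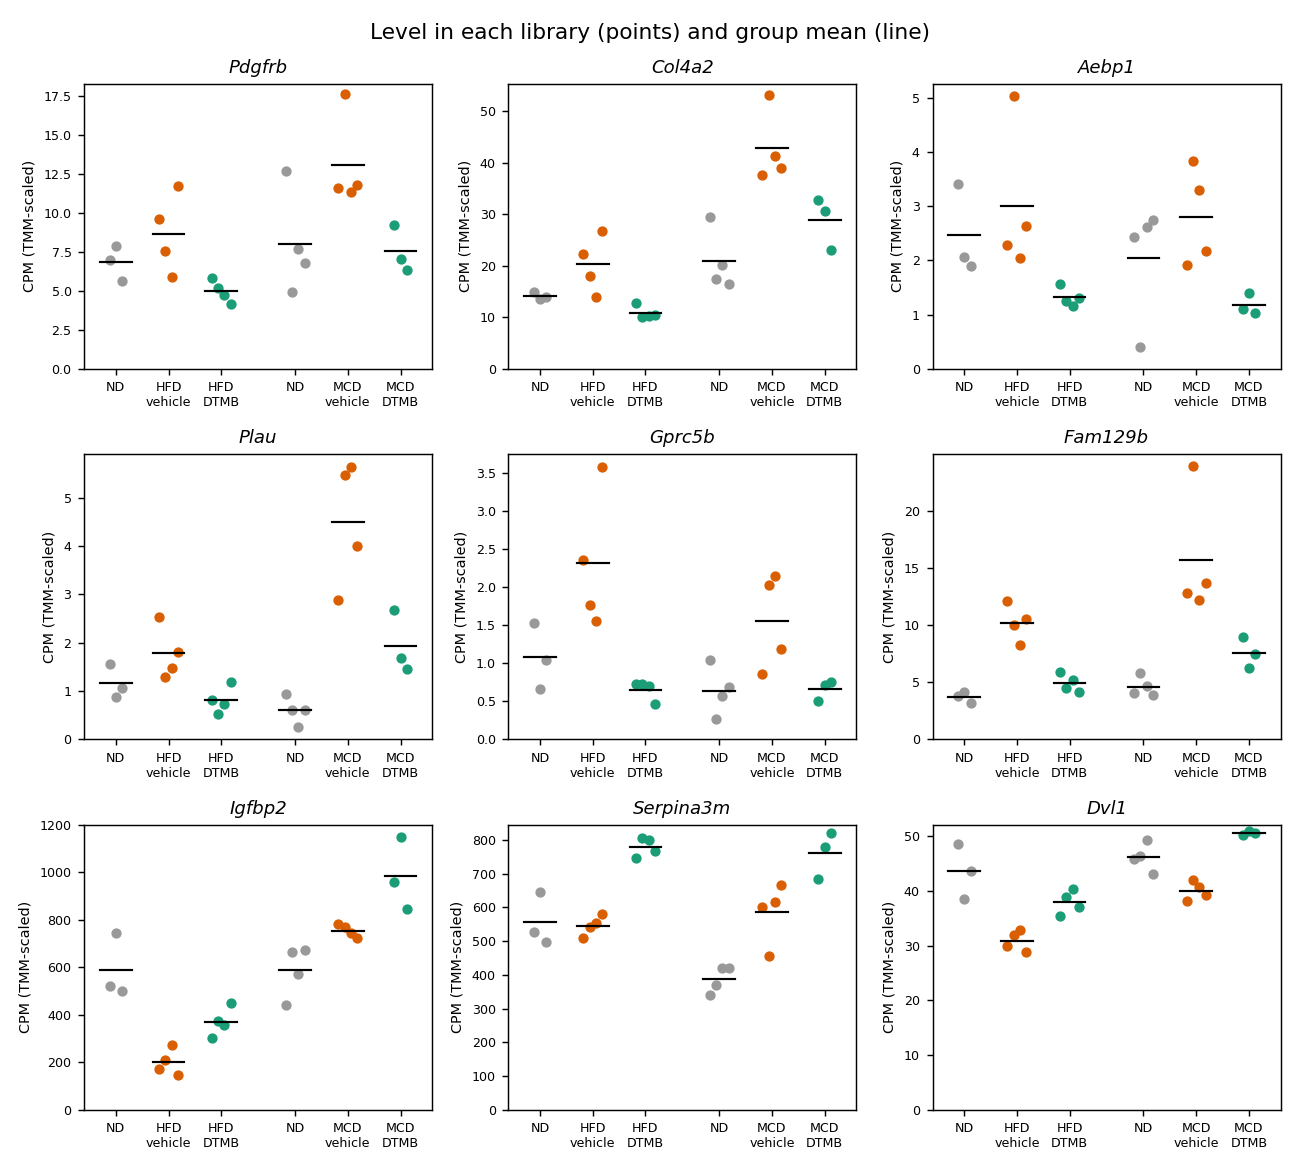
Level of 9 called genes (1 panel each, CPM over the TMM-scaled library size, axis from 0) in ND, vehicle (orange) and DTMB (green) libraries of the HFD and MCD cohorts, 1 point a library and a line at the group mean. In each panel the DTMB libraries of a cohort lie on 1 side of its vehicle libraries, lower for Pdgfrb, Col4a2, Aebp1, Plau, Gprc5b and Fam129b and higher for Igfbp2, Serpina3m and Dvl1.

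The proteases that fell, Plau, Prss23, Adamts5 and Adam15, also stood in no list. Plau (chr14:20836662-20843388, gene ID 18792), the urokinase that activates plasminogen, held 2.53, 1.29, 1.48 and 1.81 CPM with HFD vehicle and 0.806, 0.526, 0.735 and 1.19 CPM with HFD DTMB. MCD libraries held 2.88, 5.47, 5.63 and 4 CPM with vehicle and 2.67, 1.68 and 1.46 CPM with DTMB, and no library overlapped the other group of its cohort. The mean was -1.17 ± 0.22 (adjusted p 0.0473), and ND libraries held 0.866 to 1.56 and 0.252 to 0.929 CPM in the HFD and MCD cohorts. Prss23 (chr7:89507783-89527187, gene ID 76453), a secreted serine protease, held 5.28, 5.58, 3.68 and 5.98 CPM with HFD vehicle and 2.97, 3.22, 3.18 and 2.95 CPM with HFD DTMB, then 4.69, 7.15, 4.58 and 5.44 CPM with MCD vehicle and 3.26, 2.99 and 2.87 CPM with MCD DTMB. The groups were separate in both cohorts and the mean was -0.79 ± 0.12 (adjusted p 0.0359). For Prss23 the ND libraries of the HFD cohort held 4.28 to 5.09 CPM, above all HFD DTMB libraries. Those of the MCD cohort held 1.62 to 7.88 CPM. Adamts5, an aggrecanase of the ADAMTS family, was at -0.87 ± 0.15 and Adam15, a membrane-bound metalloprotease-disintegrin, at -0.66 ± 0.13 (adjusted p 0.0359 and 0.0497). For both, HFD vehicle replicate 3 fell within the range of the HFD DTMB libraries, while the MCD groups were apart.

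Promoters are shown for Gprc5b and Aebp1, which had the largest falls among the called genes of at least 1 CPM without overlap in either cohort, and for Col4a2, the called collagen. They come from the RefSeq table of GRCm38.p6. Each run is the 250 bases before the annotated start, 5′ to 3′ on the gene's strand. Capitals mark GC boxes (GGGCGG on either strand).
Gprc5b, chr7:118995212-118995461, minus strand: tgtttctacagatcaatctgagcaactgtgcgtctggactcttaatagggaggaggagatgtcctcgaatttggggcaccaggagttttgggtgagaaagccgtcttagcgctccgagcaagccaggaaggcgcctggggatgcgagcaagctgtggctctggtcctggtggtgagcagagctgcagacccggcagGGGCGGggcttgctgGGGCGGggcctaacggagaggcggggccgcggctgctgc
Aebp1, chr11:5861616-5861865, plus strand: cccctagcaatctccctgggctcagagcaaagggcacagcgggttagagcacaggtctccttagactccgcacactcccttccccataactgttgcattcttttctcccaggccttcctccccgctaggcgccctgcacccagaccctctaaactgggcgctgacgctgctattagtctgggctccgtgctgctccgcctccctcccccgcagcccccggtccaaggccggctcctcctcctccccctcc
Col4a2, chr8:11312555-11312804, plus strand: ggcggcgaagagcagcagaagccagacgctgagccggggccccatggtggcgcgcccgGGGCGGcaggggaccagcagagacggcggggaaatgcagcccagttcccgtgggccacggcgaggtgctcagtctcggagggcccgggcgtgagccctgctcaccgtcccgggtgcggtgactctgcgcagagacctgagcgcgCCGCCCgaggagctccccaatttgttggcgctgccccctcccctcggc
Gprc5b and Col4a2 each hold 2 GC boxes here, and Aebp1 holds none. The table had 24 promoters for 18 of the 23 genes that fell and 16 for 11 of the 15 that rose. A GC box was found in 62.5% of the former and 68.8% of the latter, against 51.8% of 15620 promoters of genes tested. The AP-1 letters TGANTCA were found in 3 of 24 (12.5%) and 1 of 16 (6.25%), against 5.07%, the TEAD letters GGAATG in 1 of 24 (4.17%) and 1 of 16 (6.25%), against 11.2%, and TATAAA in none of either set, against 7.65%. Both strands were searched, and genes with several starts count several times. Prss23 gave 7 of the 24, among them 2 of the 3 with AP-1 letters and 4 of the 15 with a GC box. A match is a description of the letters only.

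Further genes that fell encode proteins at cell junctions, adhesions, microtubules or sites of endocytosis. Fam129b (chr2:32876134-32925253, gene ID 227737), a pleckstrin-homology protein found at cell junctions, held 12.1, 10, 8.25 and 10.5 CPM with HFD vehicle and 5.9, 4.49, 5.2 and 4.14 CPM with HFD DTMB. In the MCD cohort it held 12.8, 23.9, 12.2 and 13.7 CPM with vehicle and 8.96, 6.23 and 7.49 CPM with DTMB. The fold change was equal in the cohorts to 2 decimals (-1.05 ± 0.21 and -1.05 ± 0.23; mean -1.05 ± 0.15, adjusted p 0.0359), and MCD vehicle replicate 2 was the highest library. ND libraries held 3.15 to 4.14 and 3.9 to 5.79 CPM. Asap1 (chr15:64086840-64382941, gene ID 13196), a GTPase-activating protein for Arf at podosomes and focal adhesions, had the smallest p of all genes. It held 17.5, 15.5, 16.5 and 18.6 CPM with HFD vehicle and 11.8, 10.5, 10.2 and 8.67 CPM with HFD DTMB, and 18, 24.3, 20.3 and 20.5 CPM with MCD vehicle and 16.3, 15.2 and 12.5 CPM with MCD DTMB. The groups did not overlap, and the mean was -0.61 ± 0.088 (adjusted p 0.0359). In ND libraries Asap1 held 17.8 to 20.5 CPM in the HFD cohort, above all HFD DTMB libraries. It held 10.3 to 11.8 CPM in those of the MCD cohort, below all MCD DTMB libraries.

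Phldb1 and its paralog Phldb2, which anchor microtubules at the cell cortex, were at -0.91 ± 0.17 and -0.38 ± 0.072 (adjusted p 0.0473 for both), without overlap in either cohort. Phldb1 held 4.86, 6, 3.63 and 5.59 CPM with HFD vehicle and 2.69, 1.97, 2.63 and 1.6 CPM with HFD DTMB, and 3.99, 5.72, 2.74 and 3.3 CPM with MCD vehicle and 2.54, 2.65 and 2.33 CPM with MCD DTMB. Tns3, a tensin of focal adhesions, was at -0.39 ± 0.070, with 22.2 to 28.6 CPM with HFD DTMB against 27.1 to 34.1 CPM with HFD vehicle, an overlap made by the highest DTMB and the lowest vehicle library. Clip2, a microtubule-binding protein, was at -0.98 ± 0.17, and the endocytic scaffold Itsn1 at -0.34 ± 0.066. In these 2 genes the groups were separate in the HFD cohort and overlapped in the MCD cohort.

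Hspb1, Mbnl3, Adcy2 and Cyp3a57 complete the genes that fell. Hspb1, the small heat shock protein Hsp27, was at -0.79 ± 0.15 (adjusted p 0.0473) and the RNA-binding splicing regulator Mbnl3 at -0.94 ± 0.17 (-1.47 in the HFD and -0.41 in the MCD cohort). Of the 13 heat shock genes listed, Hspb1 alone passed, and the list's median was -0.28. Adcy2, an adenylyl cyclase, and Cyp3a57, a cytochrome P450, rest on few counts. The 4 HFD DTMB libraries had no count of either gene, while the HFD vehicle libraries had 31 counts of Adcy2 and 36 of Cyp3a57 in all. With 3 counts over the group as the floor, Adcy2 was at least 9.07-fold and Cyp3a57 at least 10.5-fold lower in the HFD cohort, which covers counting error only. In the MCD cohort their log2 fold changes were -0.51 ± 0.50 and -0.76 ± 0.40. Reads of the near-identical Cyp3a genes may be split between copies.

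**Figure D4:**
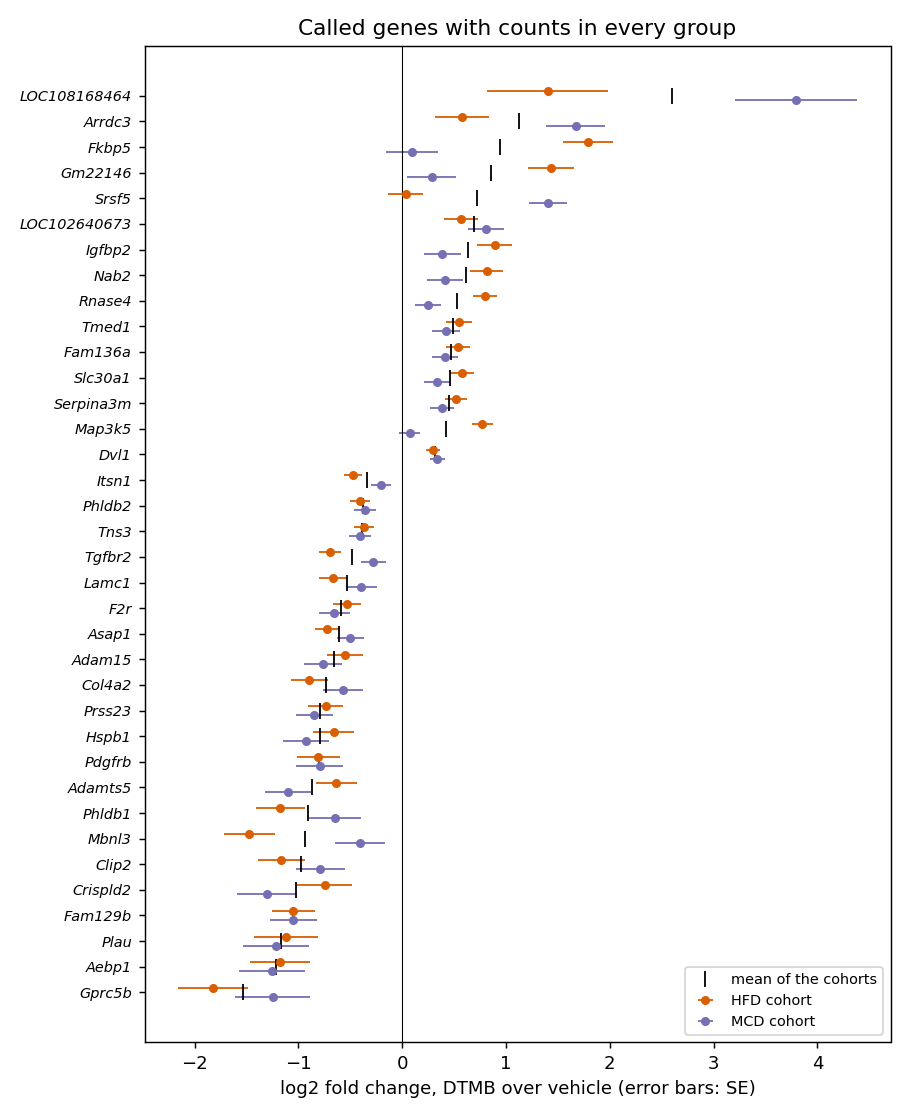
Log2 fold change, DTMB over vehicle (x axis, error bars SE), in the HFD cohort (orange) and the MCD cohort (violet) for the 36 called genes with counts in every group (y axis), and the mean of the cohorts (black tick). All points of a gene lie on 1 side of 0, and Fkbp5, Map3k5 and Srsf5 are close to 0 in 1 cohort.

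The genes that rose included Igfbp2, Serpina3m and Rnase4, which encode secreted proteins. Igfbp2 (chr1:72824480-72852474, gene ID 16008), a binding protein for insulin-like growth factors, stood at 171, 210, 274 and 147 CPM with HFD vehicle and 304, 373, 358 and 450 CPM with HFD DTMB. In the MCD cohort it stood at 781, 771, 744 and 722 CPM with vehicle and 959, 1150 and 845 CPM with DTMB. The groups were separate in both cohorts, and among these disease-diet libraries all of the MCD cohort lay above all of the HFD cohort. The mean was 0.64 ± 0.12 (adjusted p 0.0473), 0.89 ± 0.17 in the HFD and 0.39 ± 0.18 in the MCD cohort, and ND libraries held 499 to 744 and 442 to 672 CPM. Serpina3m (chr12:104387157-104394259, gene ID 20717), a serpin of the alpha-1-antichymotrypsin family, held 508, 541, 554 and 580 CPM with HFD vehicle and 746, 804, 800 and 766 CPM with HFD DTMB. Its MCD libraries held 601, 455, 617 and 667 CPM with vehicle and 684, 779 and 821 CPM with DTMB. These did not overlap, and the mean was 0.45 ± 0.078 (adjusted p 0.0359). ND libraries of the HFD cohort held 496 to 645 CPM. Those of the MCD cohort held 341 to 420 CPM, below all MCD vehicle libraries, so that DTMB libraries lay further from ND than vehicle libraries there. Serpina3m has near-identical copies, so its counts may include reads of others of the cluster. It was the only gene called among 24 listed acute phase proteins, whose median was 0.0038.

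Rnase4, a secreted ribonuclease, held 694, 725, 808 and 684 CPM with HFD vehicle and 1040, 1380, 1330 and 1320 CPM with HFD DTMB, and 794, 845, 679 and 990 CPM with MCD vehicle and 974, 980 and 995 CPM with MCD DTMB. The HFD groups were apart and the MCD groups overlapped, and the mean was 0.52 ± 0.085 (adjusted p 0.0359). Levels in ND libraries were 426 to 567 CPM in the HFD cohort, below all HFD vehicle libraries, and 970 to 1210 CPM in the MCD cohort. Ang (angiogenin) starts at the same base and was at 0.52 (adjusted p 0.0562), so reads of the shared stretch cannot be assigned to 1 of them. In all, 12 of the 38 called genes overlap another tested gene by position, and whether reads of these stranded libraries were counted by strand is not given in the sources used here.

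Of the other genes that rose, Dvl1 (chr4:155847402-155859303, gene ID 13542), which relays Wnt signals from Frizzled receptors, had replicates close to each other. It held 29.9, 32, 32.9 and 28.9 CPM with HFD vehicle and 35.5, 38.9, 40.4 and 37.1 CPM with HFD DTMB, and 38.2, 41.9, 40.8 and 39.2 CPM with MCD vehicle and 50.3, 51 and 50.5 CPM with MCD DTMB. The groups did not overlap, and the mean was 0.32 ± 0.052 (adjusted p 0.0359). Dvl1 stood at 38.5 to 48.5 and 43.1 to 49.3 CPM in ND libraries of the HFD and MCD cohorts. Nab2, a corepressor of the Egr transcription factors, was at 0.61 ± 0.12 with 8.57, 6.94, 9.82 and 9.95 CPM in HFD vehicle and 12.3, 16.6, 15 and 18.1 CPM in HFD DTMB libraries, and 13, 8.85, 12 and 13.5 CPM with MCD vehicle and 18.6, 14.4 and 14.2 CPM with MCD DTMB. Slc30a1, the plasma membrane zinc exporter ZnT1, was at 0.46 ± 0.086 with 28.3, 26.3, 29.7 and 29.6 against 34.7, 51.5, 36.1 and 47.7 CPM in the HFD cohort and 25.1, 28.9, 26 and 27.9 against 31.7, 33.3 and 37.3 CPM in the MCD cohort. Fam136a, a mitochondrial protein, was at 0.47 ± 0.085. These 3 genes had an adjusted p of 0.0473, 0.0473 and 0.0415 and did not overlap in either cohort. Tmed1, a p24 cargo receptor between endoplasmic reticulum and Golgi, was at 0.49 ± 0.093, with an overlap in the MCD cohort.

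In several called genes most of the mean came from 1 cohort. Fkbp5, a glucocorticoid-induced co-chaperone, held 22.2, 31.3, 46.5 and 53.4 CPM with HFD vehicle and 143, 135, 154 and 98.5 CPM with HFD DTMB, but 181, 161, 118 and 154 CPM with MCD vehicle and 152, 137 and 204 CPM with MCD DTMB. Its log2 fold change was 1.79 ± 0.24 in the HFD and 0.10 ± 0.25 in the MCD cohort, and the difference between them had an adjusted p of 0.194. Gm22146, a predicted gene that lies within the span of Fkbp5, was at 1.43 ± 0.22 and 0.29 ± 0.24. Map3k5, the stress kinase ASK1, was at 0.77 ± 0.097 in the HFD and 0.07 ± 0.10 in the MCD cohort (difference, adjusted p 0.194). Srsf5, a splicing factor, went the other way, with 0.03 ± 0.17 in the HFD and 1.41 ± 0.18 in the MCD cohort (difference, adjusted p 0.128). Its 4 MCD vehicle libraries held 20.1, 15.7, 17.9 and 13.3 CPM and the 3 with DTMB 46.4, 34 and 52.8 CPM. Arrdc3, an arrestin-domain adaptor, rose by 0.57 ± 0.26 and 1.67 ± 0.28 in the HFD and MCD cohorts. The predicted genes LOC102640673 and LOC108168464 complete the 15, the latter below 1 CPM in every library of the fit. The absolute effect was larger in the HFD cohort for 10 of the 15 genes that rose and 14 of the 23 that fell.

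No gene passed the stricter test of an effect in each cohort with the same sign, in which the larger of the 2 cohorts' p-values was adjusted over all genes (edgeR, lowest adjusted p 1, 0% called). Counted without adjustment 332 genes had a p under 0.05 in each cohort and 1 sign, 100 higher and 232 lower, and 69 had such p-values with opposite signs. DESeq2 and limma-voom also called 0 genes. In the joint fit 222 genes were called for the HFD effect alone and 1 for the MCD effect alone, and the median within-group SD of log2(CPM + 1) was 0.132 in the HFD and 0.203 in the MCD cohort. The log2 fold changes of the 2 cohorts correlated across genes (which do not count as independent replicates) with a Pearson r of 0.209 and a Spearman rho of 0.325.

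The DTMB effect itself differed between cohorts in 2 genes (0.0122%), both lower in the MCD than in the HFD cohort. Derl3, a factor of endoplasmic-reticulum-associated degradation, averaged 1.57 ± 0.583 CPM with HFD vehicle (SD, n = 4) and 4.37 ± 0.62 CPM with HFD DTMB (n = 4). In the MCD cohort it averaged 0.922 ± 0.319 CPM with vehicle (n = 4) and 0.362 ± 0.0332 CPM with DTMB (n = 3). The difference of the log2 fold changes, MCD minus HFD, was -2.81 ± 0.41 (adjusted p 0.0401). Efna1, an ephrin ligand, had log2 fold changes of 0.56 in the HFD and -1.21 in the MCD cohort, a difference of -1.77 ± 0.25 (adjusted p 0.0401). Without HFD vehicle replicate 2, 3 or 4, HFD DTMB replicate 2, MCD vehicle replicate 1 or 4, or MCD DTMB replicate 1 or 2, 0 genes passed in edgeR, with 1092 to 1590 at an unadjusted p under 0.05. Without MCD DTMB replicate 3 another gene passed and neither of these did. Derl3 alone passed without HFD vehicle replicate 1, and Efna1 alone without HFD DTMB replicate 3 or 4. Both passed without HFD DTMB replicate 1, MCD vehicle replicate 3 or MCD vehicle replicate 2, with 3, 5 and 9 genes in all.

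Lists of genes were described by their counts and medians beside the same over all genes, whose median log2 fold change was 0.0026 for the mean effect, -0.012 in the HFD and 0.016 in the MCD cohort. Both cohorts' log2 fold changes were below 0 in 31.0% of all genes and above 0 in 32.6%. An unadjusted p under 0.05 for the mean effect was reached by 12.0% of all genes with a lower level and 10.3% with a higher level. Of the 16 collagens 1 was called (Col4a2), 13 had an unadjusted p under 0.05 and a lower level with DTMB, and 12 were below 0 in both cohorts. Their median was -0.74, with -0.91 in the HFD and -0.61 in the MCD cohort. Col1a1, a chain of fibrillar type I collagen, averaged 19 ± 6.9 CPM with HFD vehicle and 4.45 ± 1.99 CPM with HFD DTMB, and 16.8 ± 9.89 and 8.02 ± 4.5 CPM in the MCD groups (SD). Its log2 fold change was -1.58 ± 0.33, with an adjusted p of 0.0562. Col6a1, a chain of the beaded-filament type VI collagen, was at -0.74 ± 0.16 (adjusted p 0.0562), and its groups did not overlap in either cohort.

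Among 30 matrix glycoproteins, proteases and crosslinkers none was called, 23 had an unadjusted p under 0.05 with a lower level and 27 were below 0 in both cohorts, with a median of -0.62 (-0.54 and -0.62 in the HFD and MCD cohorts). The inhibitor of metalloproteases Timp2 was at -0.71 ± 0.14 (adjusted p 0.0539), the collagen crosslinker Loxl1 at -0.77 ± 0.19 (adjusted p 0.0688) and the collagen-binding Sparc at -0.62 ± 0.17 (adjusted p 0.0799). Of 16 stellate cell markers Pdgfrb alone was called, 10 were below 0 in both cohorts and the median was -0.22 (-0.145 without MCD vehicle replicate 2). The summed level of 5 defining stellate markers was 72.6 to 90.5 CPM with HFD vehicle and 60.9 to 76.9 CPM with HFD DTMB, and 112 to 175 and 98.4 to 107 CPM in the MCD groups. None of the 5 was at 0 in all libraries, and their part in the lower matrix genes was not tested. In bulk tissue fewer cells of a type and less RNA per cell cannot be told apart. Liver endothelial markers, 15 of 17 below 0 in both cohorts with none called, had a median of -0.25, with Eng, a co-receptor for transforming growth factor beta, at -0.38 ± 0.099 (adjusted p 0.0785).

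Macrophage genes had medians below 0 and no called member. Of 23 monocyte and lipid-associated macrophage markers, 19 had an unadjusted p under 0.05 with a lower level and 19 were below 0 in both cohorts, with a median of -0.82 (-0.73 in the HFD and -0.68 in the MCD cohort). Gpnmb, a glycoprotein of lipid-associated macrophages, averaged 2.67 ± 2.14 CPM with HFD vehicle and 0.375 ± 0.292 CPM with HFD DTMB. The MCD means were 208 ± 97 CPM with vehicle and 67.3 ± 48.9 CPM with DTMB. The groups did not overlap in either cohort, and the log2 fold change was -2.23 ± 0.48 (adjusted p 0.0572). Fabp5, the fatty acid-binding protein of macrophages and epithelia, was at -0.86 ± 0.19 (adjusted p 0.0592). In ND libraries of the MCD cohort Fabp5 held 19.1 to 70.1 CPM, no lower than the 20.9 to 39.6 CPM with MCD vehicle on average. Gpnmb held 0 to 0.855 CPM in the same ND libraries. The summed 7 defining markers of monocytes and lipid-associated macrophages were at 5.39 to 23.3 CPM with HFD vehicle and 3.86 to 6.06 CPM with HFD DTMB. In the MCD groups they were at 166 to 413 and 50.7 to 159 CPM. Gpnmb, 1 of the 7, made up most of the MCD sums, with 138 to 348 CPM with vehicle and 35.3 to 124 CPM with DTMB. The MCD sums thus mainly repeat the fall of this gene. The 18 Kupffer and resident macrophage markers had a median of -0.40, -0.61 in the HFD and -0.17 in the MCD cohort, with 11 below 0 in both. In that list Cd68 was at -0.88 ± 0.27 (adjusted p 0.106). The summed 7 defining Kupffer markers overlapped in both cohorts. They were at 126 to 326 CPM with HFD vehicle and 139 to 217 CPM with HFD DTMB, and at 138 to 439 and 237 to 315 CPM in the MCD groups. The medians of these 7 were -0.63 in the HFD and -0.046 in the MCD cohort.

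None of the genes in the inflammatory lists was called. Counts of the same sign are to be read beside 63.6% of all genes tested. The chemokine (65.4%), NF-kB (60%) and interleukin-1 (60%) lists were near that share. The 26 chemokines and cytokines had medians of -1.11 in the HFD and -0.11 in the MCD cohort, with 17 of the same sign. Ccl2, the monocyte chemoattractant, averaged 2.39 ± 1.35 and 0.4 ± 0.191 CPM with vehicle and DTMB in the HFD cohort and 2.51 ± 0.786 and 2.73 ± 1.19 CPM in the MCD cohort. Its log2 fold changes were -2.57 and 0.12, and their difference had an adjusted p of 0.206. The 30 genes of NF-kB feedback and Toll-like receptors had medians of -0.58 and -0.04, with 18 of the same sign. Nfkb1 was at -0.28 ± 0.073 (adjusted p 0.0785) with nearly equal effects in the cohorts (-0.30 and -0.26), and the endotoxin receptor Tlr4 likewise (-0.79 and -0.76). They were the only 2 of the 30 with an unadjusted p under 0.05 in each cohort and 1 sign. Tnfaip3, a feedback gene of that list, was at -1.30 in the HFD and 0.12 in the MCD cohort (difference, adjusted p 0.206). Of 34 type I interferon-stimulated genes 13 had the same sign in both cohorts (medians -0.37 in the HFD and 0.17 in the MCD cohort). Of 16 interferon-gamma-induced GTPases 4 had the same sign (medians -1.07 and 0.25). Gbp9, of the smallest p, was at -1.08 and -0.21, Gbp10 at -1.63 and 0.35 and Gbp2 at -1.49 and 0.33. Antigen presentation genes, 9 of 19 with the same sign, had medians of -0.51 and 0.03. Of 15 interleukin-1, inflammasome and itaconate genes 9 had the same sign (medians -0.596 and 0.102). In that list 2 genes had an unadjusted p under 0.05 with a higher level and 5 with a lower level. Il1r1, of the smallest p there, rose by 1.14 in the HFD and 0.35 in the MCD cohort (mean 0.74 ± 0.17, adjusted p 0.0654). Its HFD groups were apart and its MCD groups overlapped. Without the 3 libraries that held acinar transcripts, medians of the mean effect were smaller in size in all of these lists. For chemokines and cytokines the median went from -0.49 to -0.31, and for NF-kB feedback and Toll-like receptors from -0.36 to -0.22. The GTPase median went from -0.53 to -0.17.

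**Figure D5:**
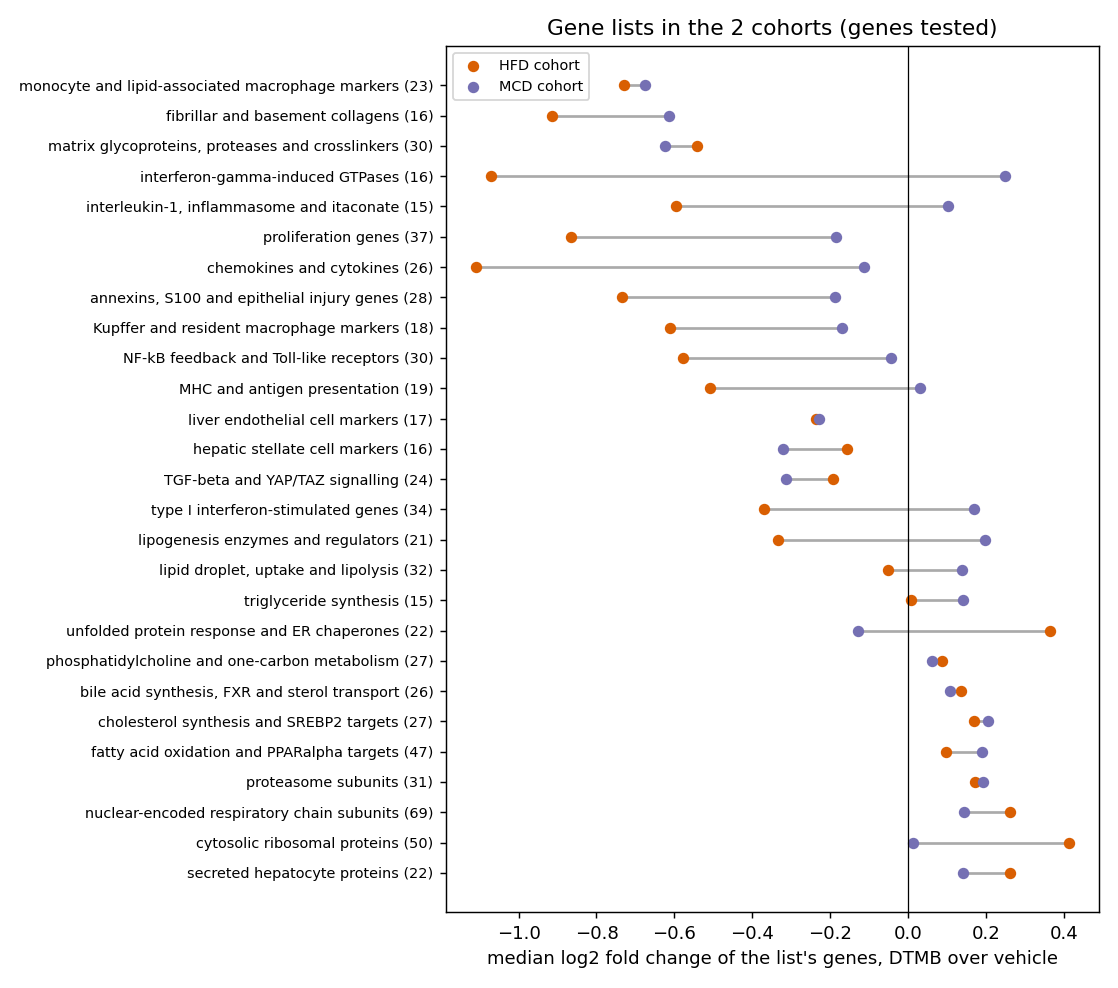
Median log2 fold change, DTMB over vehicle (x axis), of the genes in each of 27 lists (y axis, number of genes tested in brackets) in the HFD cohort (orange) and the MCD cohort (violet), joined by a line. Monocyte, collagen and matrix lists lie below 0 in both cohorts, respiratory chain and proteasome lists above 0 in both, and interferon-gamma-induced GTPases lie at -1.07 and 0.25.

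Genes of energy metabolism and protein turnover had medians slightly above 0, and none was called. Of 69 nuclear-encoded respiratory chain subunits 65 were above 0 in both cohorts and 37 had an unadjusted p under 0.05 with a higher level, and the median log2 fold change was 0.20 (0.26 in the HFD and 0.14 in the MCD cohort). Atp5e, a subunit of ATP synthase, was at 0.44 ± 0.13 (adjusted p 0.0893) and the complex I subunit Ndufb8 at 0.39 ± 0.12 (adjusted p 0.0981). Of 31 proteasome subunits 28 were above 0 in both cohorts (median 0.18), and of 22 secreted hepatocyte proteins 20 (median 0.23). Scaling by library size alone left medians of 0.0787 for the respiratory chain, 0.0549 for the proteasome, 0.111 for the secreted proteins and 0.017 for the fatty acid oxidation genes below, and without MCD DTMB replicate 3 the proteasome median was 0.0999. Apoa1, the main protein of high-density lipoprotein, was at 0.41 ± 0.11 (adjusted p 0.0835). The 50 cytosolic ribosomal proteins had medians of 0.41 in the HFD and 0.013 in the MCD cohort.

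None of the genes in the lipid lists was called. Fabp1, the fatty acid-binding protein of hepatocytes, averaged 3390 ± 411 and 4290 ± 682 CPM with vehicle and DTMB in the HFD cohort and 706 ± 104 and 1290 ± 441 CPM in the MCD cohort, a log2 fold change of 0.60 ± 0.13 (adjusted p 0.0592). The sterol exporter genes Abcg5 and Abcg8, whose products pump sterols into bile as a pair, were at 0.43 ± 0.10 and 0.48 ± 0.16 (adjusted p 0.0692 and 0.123), with Abcg5 at 0.42 and 0.44 in the cohorts. Cidec, a lipid droplet fusion protein, was at -1.89 in the HFD and -0.19 in the MCD cohort (mean -1.04 ± 0.26, adjusted p 0.0713). The median over 47 genes of fatty acid oxidation was 0.14, with 34 above 0 in both cohorts, and Cyp4a31 at 0.46 ± 0.12 (adjusted p 0.0795) belongs to a family of near-identical copies. The 21 lipogenesis genes had medians of -0.34 in the HFD and 0.20 in the MCD cohort, with 10 of the same sign. Its members of smallest p were G6pdx at -0.63 ± 0.17 (adjusted p 0.0802), Nr1h3 at 0.19 ± 0.065 and Scd2 at -0.42 ± 0.16. Triglyceride synthesis, lipid droplet, cholesterol, bile acid and phosphatidylcholine lists had medians from 0.029 to 0.12, and scaling by library size alone put all 5 below 0. That scaling lowered the median of all genes to -0.13 and split the called genes into 33 higher and 612 lower, against 15 and 23 with TMM factors.

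Of the 53 lists, the unfolded protein response genes had the smallest share with a common direction. Of these 22 genes 2 (9.09%) had the same sign in both cohorts, with medians of 0.36 in the HFD and -0.13 in the MCD cohort. Those 2 were Xbp1, a transcription factor of this response, at 0.51 and 0.17 (mean 0.34 ± 0.083, adjusted p 0.0688), and Herpud1, at 0.47 and 0.20. For the difference between cohorts 1 gene of the list was called, and 12 had an unadjusted p under 0.05. Of 37 proliferation genes 24 were below 0 in both cohorts, with a median of -0.52, which was -0.243 without MCD vehicle replicate 2. Tk1, the cytosolic thymidine kinase, had the smallest p of that list and the opposite sign, at 0.57 ± 0.12 (adjusted p 0.0562). Of 28 annexin, S100 and epithelial injury genes Gprc5b alone was called, and Anxa2, a calcium-dependent membrane-binding annexin, was at -0.98 ± 0.20 (adjusted p 0.0562).

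Single libraries recurred at the edges of their groups. Over the 23 genes that fell, MCD vehicle replicate 2 was the highest of its group in 14, HFD vehicle replicate 4 in 12, HFD DTMB replicate 1 in 12 and MCD DTMB replicate 1, of a group of 3, in 12. HFD vehicle replicate 3 was the lowest of its group in 14, HFD DTMB replicate 4 in 13 and MCD DTMB replicate 3 in 12. Over the 15 that rose, HFD DTMB replicate 1 was the lowest of its group in 13 and HFD vehicle replicate 3 the highest in 9. Among the MCD libraries, the same MCD vehicle replicate 2 held the top summed level of Kupffer (439 CPM) and stellate (175 CPM) markers. It also held that of monocyte and lipid-associated macrophage markers (413 CPM, of which Gpnmb gave 348 CPM). HFD vehicle replicate 3 held the lowest of each among the HFD vehicle libraries (126, 72.6 and 5.39 CPM). The part of these cell-type markers in the called effects was not tested.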

How the data were processed

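RNA of mouse liver was measured in 22 libraries (polyA-selected, stranded, per the labels' protocols). The authors deposited raw counts of reads for each gene, not normalized. The submitters' processing notes name HISAT2 2.1.0, StringTie 2.1.3b, Trimmomatic 0.38, FastQC 0.11.7 and mm10, with no order or settings. Names and positions came from the GRCm38.p6 RefSeq table (45679 of 45777 gene IDs matched).

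The 15 disease-diet libraries were fitted with edgeR 4.0.16 in R 4.3.3 (filterByExpr, TMM factors, quasi-likelihood F test at its defaults, 1 mean per group). The mean DTMB effect gave each cohort equal weight. The test in both cohorts took the larger of the cohorts' p-values where signs matched, and the difference was MCD minus HFD. Benjamini-Hochberg adjustment covered the 16351 genes tested, and genes were called at 0.05 whatever their fold change. SE came from the coefficient and its F statistic. ND libraries were put on the same TMM scale. The comparison, its members and 53 gene lists were chosen with earlier results of these data known.

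Named were up to 10 rises and 10 falls called with 1 sign and no overlap in either cohort, which gave 6 and 10. They held at least 1 CPM in the higher group and had no predicted name. Candidates beside these were the 2 or 3 members of smallest p of each list described, and the genes of smallest p for the difference. Only part of these candidates is given in the text, a choice made with their values seen. The other called genes, Col4a1 and Ang were named after their values were seen. Alternatives were DESeq2 1.42.0, limma-voom (limma 3.58.1) with sample or cohort weights, RLE factors, library size alone, no or a stricter count filter (CPM above 1 in 3 libraries), an additive design, all 22 libraries, a replicate block, a fold cutoff, and leaving out each library or the 3 libraries with over 100 CPM of acinar transcripts. Voom without weights and a robust prior were chosen after seeing the data. Libraries of a number did not pair (correlations of deviations -0.554 to 0.277). Every replicate pair differed by more than sampling noise (chi-square at least 26.7 per degree of freedom). Simulated data with known changes were used to check the scripts. Figures used matplotlib 3.10.9.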

Additional observations from a re-analysis of the deposited data

Results flagged for a closer look

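Of 364 groups of 4 libraries, over 111 genes and 11 summed marker lists, 28 (7.69%) held a library whose gap to its neighbour took a larger share of the group's range than Dixon's 95% critical value. Chance flags about 1 in 20 groups, and MCD DTMB, with 3 libraries, was not examined.

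Among the called genes, MCD vehicle replicate 2 stood above its group for Fam129b (23.9 CPM, next 13.7) and Pdgfrb (17.6 CPM, next 11.8). HFD DTMB replicate 4 stood below its group for Gprc5b (0.466 CPM), Crispld2 (0.503 CPM) and Itsn1 (20.4 CPM) and above it for Mbnl3 (0.522 CPM). HFD DTMB replicate 1 stood above its group for Col4a2 (12.7 CPM) and Tns3 (28.6 CPM), and HFD DTMB replicate 3 for Adamts5 (1.71 CPM). HFD vehicle replicate 3 was low for Adam15 (1.83 CPM), Itsn1 (27.1 CPM) and Arrdc3 (98.5 CPM).

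Among genes that were not called for the mean effect, MCD vehicle replicate 2 was high for Cxcl14 (4.69 CPM) and Fabp5 (39.6 CPM), and MCD vehicle replicate 4 was high for Insig1 (290 CPM) and Pemt (309 CPM) and low for Zkscan14 (2.75 CPM). MCD vehicle replicate 1 was low for Mogat1 (0.12 CPM). HFD DTMB replicate 1 was high for Ccl3 (0.197 CPM) and Cidec (16.8 CPM), HFD vehicle replicate 3 for Insig1 (141 CPM) and HFD vehicle replicate 1 for Efna1 (24.8 CPM).

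Summed markers stood apart for hepatocytes in MCD vehicle replicate 4 (122000 CPM), for pancreatic acinar cells in HFD vehicle replicate 4 (3530 CPM) and HFD DTMB replicate 3 (2300 CPM), and for T, NK and B cells in HFD vehicle replicate 2 (21.2 CPM). Cholangiocyte markers did so in HFD DTMB replicate 2 (4.93 CPM, low) and MCD vehicle replicate 2 (11.9 CPM, high).

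The DTMB effect differed between the cohorts by an interaction test for Efna1 (difference of log2 fold changes, MCD minus HFD, -1.77) and Derl3 (-2.81).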

How the results depend on the processing

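Of the choices tried, the number of genes called for the mean DTMB effect (38) moved most. It was 645 with library size alone, 18 with no count filter, 1204 with DESeq2, 1956 with limma-voom and a weight per sample, 0 with a variance weight per cohort (3302 at an unadjusted p under 0.05), 5 with limma-voom without weights, 13 with an additive design, 146 with all 22 libraries (27 of the 38 among them), 9 with a size of 1 or more asked of the log2 fold change, and 0 without the 3 libraries with acinar transcripts. Leaving out 1 library gave 0 to 869. The cause was not tested. RLE factors (27), a stricter filter (44) and a robust prior (54) stayed within 1.5 times. A replicate block gave 9 genes, none of them among the 38, and 1 gene in both cohorts. No DTMB library of the 7 correlated best with the vehicle library of its own number, so the numbers were not taken as pairs.

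The difference between cohorts (2 genes) went to 0 with library size alone, limma-voom with a cohort weight or without weights, all 22 libraries, the replicate block and without the 3 libraries, to 91 with DESeq2, to 8 with limma-voom and sample weights, and to 0 to 9 on leaving out 1 library. Both cohorts' test stayed at 0 on leaving out each library. Genes with the same sign (63.6%) were 64.7% with library size alone, 52.4% with no filter, 64.9% with the stricter filter, 65.1% with sample weights, 66% with the replicate block, 60.9% without the 3 libraries and 56.8% to 66.2% on leaving out 1.

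No called gene changed direction in any of the 28 settings that could fit it. These fits share libraries with the one that made the calls, so the kept direction is a description. Library size alone lowered the median of all genes to -0.13 and moved the 27 list medians by -0.157 to -0.119. They reversed for triglyceride synthesis (-0.0618), lipid droplet (-0.0981), cholesterol (-0.0114), bile acid (-0.0378), phosphatidylcholine (-0.0388) and unfolded protein response genes (-0.0526). On leaving out 1 library the lipogenesis median ran from -0.154 to 0.0356 (without MCD DTMB replicate 1), and that of type I interferon-stimulated genes from -0.358 to 0.0218 (without MCD DTMB replicate 2). Leaving out MCD vehicle replicate 2 moved the phosphatidylcholine median from 0.0855 to 0.0477 and that of annexin and injury genes from -0.473 to -0.303. Those of triglyceride synthesis, lipid droplet, cholesterol and bile acid genes kept their sign but ran from 0.0427 to 0.111, 0.0193 to 0.0587, 0.0912 to 0.183 and 0.0607 to 0.167. Depth limits Adcy2, Cyp3a57 and LOC108168464, all below 1 CPM on average in each group.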
